A study of Mus musculus with 24 samples.

Results

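The oligodendrocyte lineage transcription factors are 10 nuclear regulators of the cells that make central myelin, namely Sox10, Olig1, Olig2, Sox8, Nkx2-2, Zfp488, Tcf7l2, Nkx6-2, Myrf and St18. They were chosen by symbol for their role, with earlier results of these data known, and all 10 were found among the 33364 genes listed. RNA was sequenced from 2 neighbouring areas of the frontal midline, the mPFC (medial prefrontal cortex) and the ACC (anterior cingulate cortex), of female and male C57BL/6 mice, 3 months old, 2 weeks after spared nerve injury (SNI) or sham surgery. In SNI the common peroneal and sural branches of the left sciatic nerve are tied and cut while the tibial branch is spared, which gives a lasting neuropathic pain, and the sham mice were operated on with the nerves left whole. There were 8 groups (female or male, sham or SNI, mPFC or ACC), each with 3 libraries, and each library came from tissue punches of 4 to 5 pooled animals, so the spread between libraries is that between pools. All groups share strain and age, and no group carries a transgene. The comparisons ask whether the regulators of the lineage differ after SNI, between regions and between sexes, and whether they differ along with the myelin genes or apart from them.

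Oligodendrocytes arise from dividing precursors, which leave the cell cycle, pass through a short newly formed stage and then build myelin. Olig2 and Sox10 are present from the precursor to the myelinating cell, while Myrf comes on only once the cell has left the cycle and then drives the genes of the myelin sheath together with Sox10. Cortex holds all of these stages, and the deeper layers of the prefrontal cortex are the more heavily myelinated.

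Every member lay on a chromosome of GRCm38 as GENCODE release M21 places it. Sox10, an HMG-box factor needed for terminal differentiation, lies at chr15:79154908-79165240 on the minus strand (ENSMUSG00000033006), and its close relative Sox8, which has partly the same functions, at chr17:25565892-25570686 on the minus strand (ENSMUSG00000024176). Olig1, a basic helix-loop-helix factor of maturation and myelin repair, lies at chr16:91269772-91271933 (ENSMUSG00000046160), and Olig2, its relative that specifies the lineage, on the same chromosome, at chr16:91225457-91228677 (ENSMUSG00000039830), both on the plus strand. The homeodomain factor Nkx2-2, which precursors use at the onset of differentiation, lies at chr2:147177546-147194243 on the minus strand (ENSMUSG00000027434). Zfp488, a zinc finger partner of Olig2, lies at chr14:33967070-33978764 on the minus strand (ENSMUSG00000044519). Tcf7l2, an effector of Wnt signals that newly formed oligodendrocytes use for a short time and that thalamic neurons also express, lies at chr19:55741820-55933654 on the plus strand (ENSMUSG00000024985). Nkx6-2, a homeodomain factor of maturing and myelinating cells, lies at chr7:139579376-139582797 on the minus strand (ENSMUSG00000041309). Myrf, a factor that is cut free from a membrane and activates myelin genes, lies at chr19:10208272-10240748 on the minus strand (ENSMUSG00000036098). St18, a zinc finger factor of the Myt family, lies at chr1:6487231-6860940 on the plus strand (ENSMUSG00000033740).

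RefSeq promoters of GRCm38.p6, each running from 250 bases before to 50 bases after a start site, were at hand for 6 of the 10 members, and 3 are printed because the slopes of their genes on the myelin genes over all 24 libraries, described further on, were 1.13 (Nkx6-2), 0.41 (Olig2) and 0.12 (Zfp488). Capitals mark letters that match the SOX motif ACAANG or the E-box CANNTG on either strand, lower case marks the rest, and each run reads 5′ to 3′ on the strand of the gene.

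Nkx6-2 (chr7:139582748-139583047, minus strand): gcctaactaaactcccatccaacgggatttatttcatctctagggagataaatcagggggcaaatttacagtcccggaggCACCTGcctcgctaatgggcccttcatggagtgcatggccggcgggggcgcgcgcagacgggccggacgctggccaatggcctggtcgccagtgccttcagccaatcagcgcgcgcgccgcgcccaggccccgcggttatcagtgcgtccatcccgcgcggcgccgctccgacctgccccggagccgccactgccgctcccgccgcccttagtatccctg

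Olig2 (chr16:91225300-91225599, plus strand): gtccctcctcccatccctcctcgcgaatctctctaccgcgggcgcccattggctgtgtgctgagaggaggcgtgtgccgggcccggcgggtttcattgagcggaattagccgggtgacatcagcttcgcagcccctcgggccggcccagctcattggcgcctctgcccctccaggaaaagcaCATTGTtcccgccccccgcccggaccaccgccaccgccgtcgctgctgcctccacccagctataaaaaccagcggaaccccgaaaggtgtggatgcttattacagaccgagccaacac

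Zfp488 (chr14:33978715-33979014, minus strand): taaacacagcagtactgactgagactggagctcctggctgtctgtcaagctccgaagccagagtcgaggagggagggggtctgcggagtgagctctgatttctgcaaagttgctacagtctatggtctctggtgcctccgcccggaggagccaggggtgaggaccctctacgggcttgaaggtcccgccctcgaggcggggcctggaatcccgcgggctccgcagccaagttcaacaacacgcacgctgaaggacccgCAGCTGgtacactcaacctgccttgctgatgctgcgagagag

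The Nkx6-2 window held 1 E-box match (CACCTG, at position -170 from the start site) and 0 SOX matches. The Olig2 window held 1 SOX match (CATTGT, at position -68) and 0 E-box matches, and the Zfp488 window held 1 E-box match (CAGCTG, at position 9). Among all 32851 promoters of the same length, 41.2% held the SOX motif and 72.3% the E-box, so a match in 1 window is common. The TCF motif CTTTGA, which can overlap a SOX match and was present in 16% of all promoters, was in none of these 3 windows.

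The libraries held 23853845 to 32864391 counts assigned to genes (median 26727282). Values are CPM, counts divided by library size, after scaling of each library by the trimmed mean of M-values (TMM), and 3 counts correspond to 0.0913 to 0.126 CPM. All members were above that in every library, with 46 counts (Nkx2-2) as the lowest and 3873 (Olig1) as the highest. Defining genes of the lineage were present throughout: none of the 30 myelin and mature oligodendrocyte genes, the 12 newly formed oligodendrocyte genes or the 16 precursor genes was at 0 in all libraries of a group. A few libraries stood apart. Female SNI mPFC replicate 1 had a summed myelin level of 1806 CPM, against 3683 and 3965 CPM in the other libraries of its group, while its summed precursor level was 1094 CPM, against 1039 and 1072 CPM. Male SNI mPFC replicate 2 had the lowest summed myelin level of its group (2945 CPM, the others 3829 and 4117 CPM), and its ependymal and choroid plexus genes summed to 87.9 CPM, against 11.6 and 14.0 CPM. Female sham ACC replicate 1 held 969 CPM of the ependymal and choroid plexus genes, against 9.36 and 17.8 CPM in the others. Counts of male sham ACC replicate 3 were the farthest from those of its group (chi-square per gene of 18.8 and 16.3 against the others, which differed from each other by 2.61), and its summed myelin level was 4305 CPM, against 5884 and 5666 CPM. Female sham mPFC replicate 3 came next, at 13.3 and 12.9, where the others of its group differed by 4.17.

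Per kilobase of exon, Olig1 was by far the most abundant member, at 51.4 ± 6.38 CPM per kb (SD over 24 libraries). Sox8 (13.6 ± 1.3), Olig2 (12.4 ± 1.42) and Sox10 (12.4 ± 2.26 CPM per kb) followed, and neighbours among these 3 did not differ beyond their spread. Myrf (6.33 ± 1.43) and Nkx6-2 (5.34 ± 1.25 CPM per kb) came next and also overlapped. Zfp488 (2.41 ± 0.297), Nkx2-2 (1.32 ± 0.278), St18 (0.818 ± 0.20) and Tcf7l2 (0.428 ± 0.0546 CPM per kb) were the lowest, each apart from its neighbour by more than the SDs. The members differed in how much they varied: over the 24 libraries the log2 level of Nkx6-2 ranged over 2.21 units, that of Myrf over 1.85 and that of St18 over 1.81, whereas Sox8 ranged over 0.54 and Zfp488 over 0.75. Exons of Olig1, Nkx6-2, Nkx2-2 and Sox8 overlap a gene on the opposite strand by 157, 246, 278 and 329 bases, respectively (Gm15966, Inpp5a, Nkx2-2os and 2810468N07Rik), and since the strand mode of the counting was not given, reads there cannot be told apart.

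**Figure D1:**
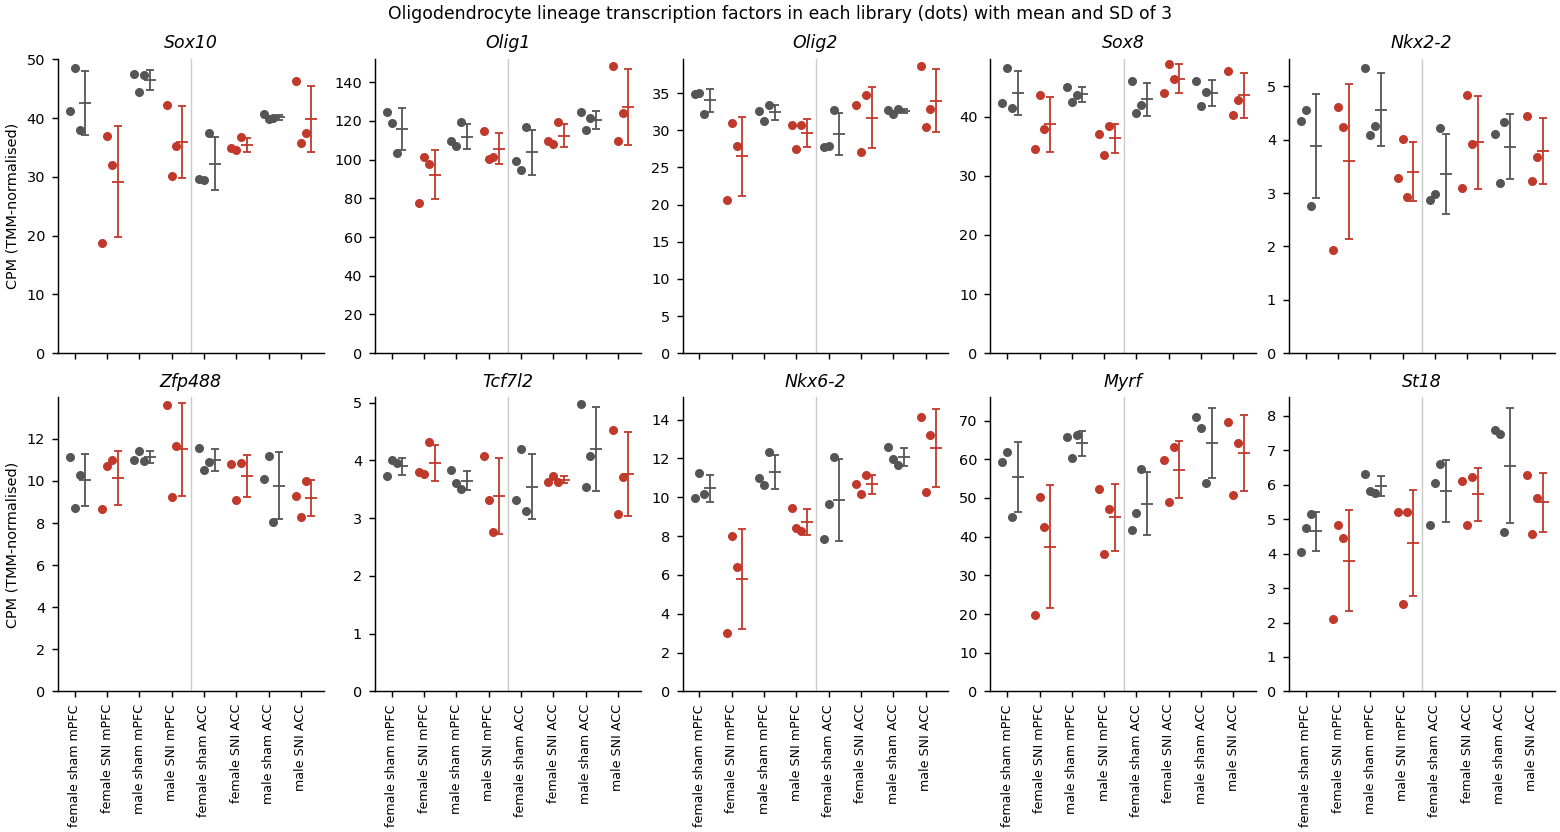
Level of each member (CPM, y axis from 0) in every library of the 8 groups (x axis), as dots, with the mean and SD of 3 libraries beside them, sham in grey and SNI in red. In the mPFC the SNI libraries sit low for Nkx6-2, Myrf and Sox10, with female SNI replicate 1 lowest, and Zfp488 and Tcf7l2 overlap between sham and SNI.

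After SNI, Myrf was called lower in the male mPFC. It was 60.4, 65.7 and 66.2 CPM in the sham male mPFC libraries and 35.4, 47.2 and 52.2 CPM in the SNI male mPFC libraries. Every SNI pool lay below every sham pool, and Myrf fell by 0.50 on the log2 scale (SE 0.10, adjusted p = 0.0696 by edgeR's quasi-likelihood test with Benjamini-Hochberg adjustment over all genes). It was the only member called at a false discovery rate (FDR) under 0.1 in the male mPFC, where 0.494% of 16989 genes were called and 0.341% were called lower. Since tissue was sequenced in bulk, fewer cells of the lineage and less RNA per cell cannot be told apart. Without male SNI mPFC replicate 2, the library with the ependymal and choroid plexus genes, the difference in Myrf was -0.36, and leaving out each library in turn gave -0.63 to -0.36 with adjusted p between 0.0208 and 0.317 and the call in 3 of 6 fits (lost without SNI replicate 3, sham replicate 1 or sham replicate 3, at -0.54, -0.49 and -0.48). The call was also lost in one model over all 24 libraries, at -0.51 (SE 0.21, adjusted p = 0.693).

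In the female mPFC Myrf was 45.0, 59.2 and 61.9 CPM in sham and 19.6, 42.4 and 50.3 CPM in SNI. The groups overlapped, and the estimate was -0.56 (SE 0.24, adjusted p = 0.413). Female SNI replicate 1 set much of it: without that library the estimate was -0.26.

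Nkx6-2 had the lowest estimate of all members in the female mPFC. Sham libraries held 9.94, 10.2 and 11.3 CPM and SNI libraries 2.99, 6.41 and 8.03 CPM, so the groups did not overlap, and the estimate was -0.84 (SE 0.23, adjusted p = 0.401). It was -0.54 without female SNI replicate 1. In the male mPFC Nkx6-2 was 10.6, 11 and 12.3 CPM in sham against 8.27, 8.41 and 9.47 CPM in SNI, again without overlap (-0.37, SE 0.10, adjusted p = 0.168). Neither sex passed the threshold for this gene. St18 was 5.75, 5.83 and 6.30 CPM in sham male mPFC and 2.53, 5.20 and 5.22 CPM in SNI (-0.45, SE 0.20, adjusted p = 0.408). The groups did not overlap, but 1 library was far below the rest, and without male SNI replicate 2 the estimate was -0.19. St18 overlapped in the female mPFC (-0.28, SE 0.24), and the estimate was -0.00060 without female SNI replicate 1.

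Sox10 was 44.5, 47.3 and 47.5 CPM in sham male mPFC and 30.1, 35.3 and 42.2 CPM in SNI (-0.36, SE 0.09, adjusted p = 0.144), and 38.0, 41.2 and 48.6 CPM in sham female mPFC against 18.7, 31.9 and 37.0 CPM in SNI (-0.54, SE 0.18, adjusted p = 0.401). The groups did not overlap in either sex, and neither difference passed the threshold. Without female SNI replicate 1 the female estimate was -0.31, and without male SNI replicate 2 the male one was -0.25. Olig2 was 31.3, 32.6 and 33.4 CPM in sham male mPFC and 27.4, 30.7 and 30.7 CPM in SNI, a narrow gap (-0.12, SE 0.06, adjusted p = 0.471). Olig2 in the female mPFC was 32.2, 34.9 and 35.0 CPM in sham against 20.6, 27.8 and 31.0 CPM in SNI (-0.36, SE 0.12, adjusted p = 0.401). The female estimate for Olig2 was -0.21 without female SNI replicate 1, and the male one was -0.07 without male SNI replicate 2.

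Olig1 was 104, 119 and 124 CPM in sham female mPFC and 77.8, 97.5 and 101 CPM in SNI (-0.33, SE 0.10, adjusted p = 0.401, and -0.22 without female SNI replicate 1), and it overlapped in the male mPFC, at 107 to 119 CPM in sham and 101 to 115 CPM in SNI (-0.08, SE 0.06, adjusted p = 0.655). Sox8 was 42.5, 43.8 and 45.1 CPM in sham male mPFC and 33.6, 37.1 and 38.4 CPM in SNI, a gap without overlap that came close to the threshold (-0.26, SE 0.06, adjusted p = 0.104). Female mPFC libraries overlapped for Sox8 (-0.19, SE 0.09, adjusted p = 0.432, and -0.11 without female SNI replicate 1).

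The remaining 3 members were Zfp488, Tcf7l2 and Nkx2-2. Zfp488 was 8.70 to 11.1 CPM in sham female mPFC and 8.68 to 11 CPM in SNI, with an estimate of 0.02 (95% interval with -0.33 and 0.36 as its bounds), and 11 to 11.4 CPM in sham male mPFC and 9.22 to 13.6 CPM in SNI, with an estimate of 0.06 (-0.27 to 0.38). Tcf7l2 was 3.73 to 4.0 CPM in sham female mPFC and 3.76 to 4.31 CPM in SNI (0.02, -0.38 to 0.42), and 3.51 to 3.83 against 2.77 to 4.07 CPM in the male mPFC (-0.10, -0.54 to 0.35). These 95% intervals use the 4 residual degrees of freedom of each pair of groups, and they reach down to between -0.54 and -0.27. Nkx2-2 overlapped in the female mPFC (-0.11, SE 0.27, and 0.18 without female SNI replicate 1). In the male mPFC it was lower without overlap: sham libraries held 4.08, 4.25 and 5.34 CPM and SNI libraries 2.92, 3.29 and 4.0 CPM (-0.42, SE 0.16, adjusted p = 0.331).

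**Figure D2:**
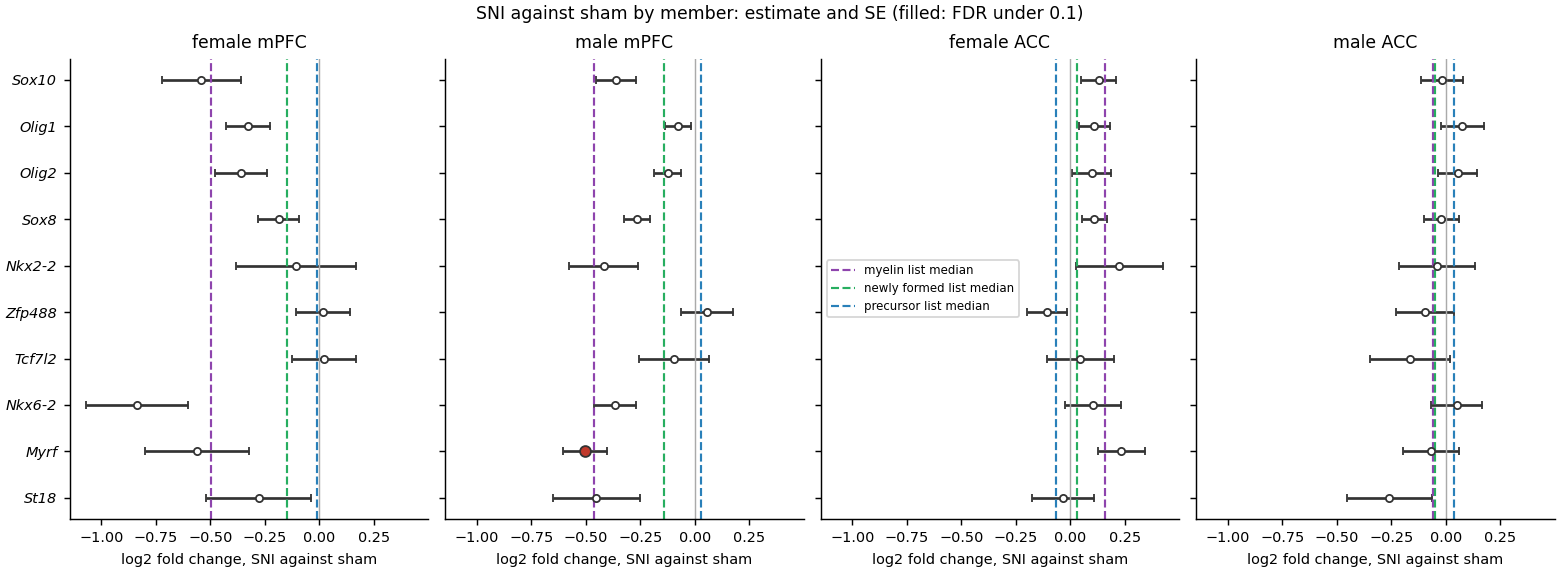
Log2 fold change of SNI against sham (x axis) for the 10 members (y axis) in each sex and region, with its SE as bars, filled where the FDR was under 0.1, and the median log2 fold change of 3 gene lists as dashed lines. In both mPFC panels Myrf lies near the myelin median and Zfp488 near the precursor median, and in both ACC panels the members lie between -0.26 and 0.23 with none filled.

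Counted over the members, 7 of 10 were lower without overlap in the male mPFC, where 9.44% of all genes tested were, and 6 of 10 were lower at an unadjusted p under 0.05, against 5.64% of all genes. In the female mPFC 0 of 10 members were called by edgeR and 0 by DESeq2, with 0.00592% of 16897 genes called by edgeR; 5 of 10 were lower at an unadjusted p under 0.05, against 5.36% of all genes, and 4 of 10 were lower without overlap, against 7.61%. The median log2 fold change of the members was -0.30 in the female and -0.31 in the male mPFC, and that of all genes tested 0.00 in both. Without female SNI replicate 1 the members' median was -0.16, and without male SNI replicate 2 it was -0.20. DESeq2 called 3 members in the male mPFC (Sox10, Myrf and Sox8) and 1.67% of genes. With both sexes in 1 model of the 12 mPFC libraries and sex as a term, 0 of 10 members and 0% of 17641 genes were called by edgeR, 6 members were lower at an unadjusted p under 0.05 (3.67% of all genes), and DESeq2 called 1 member, Sox8, and 0.357% of genes. The estimates there were -0.59 for Nkx6-2 (SE 0.15), -0.53 for Myrf (SE 0.16), -0.45 for Sox10 (SE 0.12), -0.37 for St18, -0.27 for Nkx2-2, -0.24 for Olig2, -0.22 for Sox8, -0.20 for Olig1, -0.04 for Tcf7l2 and 0.04 for Zfp488, and the smallest adjusted p was 0.349. Without female SNI replicate 1 the joint estimates were -0.16 for Olig2 and -0.15 for Nkx2-2, and without male SNI replicate 2 that for St18 was -0.23. One library decides the count in females: without female sham mPFC replicate 3, which had the lowest Myrf of the sham group, 5 members were called lower (Sox10, Olig1, Olig2, Myrf and Nkx6-2), as were, in either direction, 15.9% of all genes. Without a filter on low counts 5 members in the female mPFC (2.19% of genes) and 7 in the joint fit (1.71% of genes) were called lower.

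The stages of the lineage around the members were read in the same fits, and a difference between the stages was not tested. All 30 myelin genes had a negative estimate in both sexes, with a median of -0.50 in the female and -0.46 in the male mPFC, and 14 of 30 were called lower in the male and 0 of 30 in the female mPFC, where 18 were lower at an unadjusted p under 0.05. Mbp, which codes for a main myelin protein, was 1349 to 1492 CPM in sham male mPFC and 838 to 1157 CPM in SNI (-0.46, SE 0.09, adjusted p = 0.0607). Mog (-0.56) and Mag (-0.44), which code for other myelin proteins, were called lower there as well, with adjusted p of 0.0607 and 0.0985, and their female estimates were -0.60 and -0.64, or -0.26 and -0.34 without female SNI replicate 1. The female myelin median was -0.20 without that library, with 27 of 30 estimates negative, and the male one was -0.32 without male SNI replicate 2. Leaving out each male mPFC library in turn kept the call in 3 of 6 fits for Mbp (adjusted p between 0.0215 and 0.267), in 2 of 6 for Mog (between 0.0207 and 0.309) and in 1 of 6 for Mag (between 0.0215 and 0.33), and between 0 (without sham replicate 1 or sham replicate 3) and 22 (without SNI replicate 1) of the 30 myelin genes were called lower. Of the other male libraries, the count was 1 without SNI replicate 3, 9 without SNI replicate 2 and 13 without sham replicate 2. The share of all genes called in each of these male fits is not given here. With all libraries 0.341% were called lower. In the female mPFC, dropping sham replicate 3 raised the count from 0 to 7 of 30, with Mag and Mbp among the genes called. That fit called 15.9% of all genes in either direction. Dropping any other female mPFC library left the count at 0. Among newly formed oligodendrocyte genes the median was -0.15 in the female and -0.14 in the male mPFC, and Enpp6, a marker of cells that have just left the precursor state, was called lower in the male mPFC (-0.61, SE 0.14, adjusted p = 0.0985) as 1 of 12, a call kept in 1 of 6 fits that left out a library (adjusted p between 0.0656 and 0.33). Gpr17, a receptor of the stage between precursor and oligodendrocyte, was at -0.16 in the female mPFC (-0.10 without female SNI replicate 1) and at -0.17 in the male mPFC. It was lower without overlap in both sexes, at 49.3 to 52.6 CPM in sham and 41.7 to 48.3 CPM in SNI females, and 51.8 to 53.7 and 44.5 to 47.8 CPM in males. Bmp4, a growth factor made by newly formed cells, was at 0.03 and 0.35, and leaving out each library in turn gave -0.11 to 0.25 and 0.19 to 0.47. Neither gene was called. The precursor genes had a median of -0.01 in the female and 0.03 in the male mPFC, and 0 of 16 were called in either sex by edgeR, with 1 higher and 0 lower (female) and 1 higher and 1 lower (male) at an unadjusted p under 0.05. Over all genes tested, 6.71% were higher and 5.36% lower at that level in the female mPFC, and 5.56% and 5.64% in the male mPFC. Pdgfra, the growth factor receptor of precursors, was 63.1 to 75.3 CPM in sham and 66.0 to 70.6 CPM in SNI female mPFC (-0.06, SE 0.08), and 64.3 to 70.6 CPM in sham and 55.8 to 63.5 CPM in SNI male mPFC, without overlap (-0.14, SE 0.06, adjusted p = 0.384, and -0.09 without male SNI replicate 2). Cspg4, their surface proteoglycan, was 37.5 to 40.9 CPM in sham and 33.5 to 40.2 CPM in SNI female mPFC (-0.08, SE 0.08), and 34.9 to 38.1 CPM in sham and 34.9 to 37.1 CPM in SNI male mPFC (0.00, SE 0.06).

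Of 40 other regulators of the lineage (nuclear receptors, Id and Hes factors, Nfi factors and the like), 38 were tested in each sex of the mPFC. In the male mPFC 2 were called, both lower: Prox1, a homeodomain factor of progenitors and interneurons (-0.38, SE 0.07, adjusted p = 0.0607), and Nfib, a nuclear factor of glial differentiation (-0.26, SE 0.05, adjusted p = 0.0722). Each kept its call in 2 of 6 fits that left out a library, with adjusted p between 0.0656 and 0.317 for Prox1 and between 0.0818 and 0.317 for Nfib. The list had a median of -0.05, and 26 of 38 had a negative estimate. In the female mPFC 0 of 38 were called by edgeR, with 2 higher and 6 lower at an unadjusted p under 0.05 and a median of -0.06. At that level 6.71% of all genes were higher and 5.36% lower. Without female sham mPFC replicate 3, 3 of 38 were called higher and 7 lower, where 15.9% of all genes were called in either direction.

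Markers of other cells in the punches were read in the same fits. The 9 striatal neuron genes had a negative estimate throughout in the female mPFC (median -0.32, 0 called, 5 at an unadjusted p under 0.05, where 5.36% of all genes were lower). Their summed level was 242 to 303 CPM in sham and 232 to 235 CPM in SNI. In the male mPFC 6 of 9 were lower (median -0.09), with sums of 246 to 251 CPM in sham and 234 to 253 CPM in SNI. Of the 9 meningeal fibroblast genes 8 had a positive estimate in the female mPFC (median 0.26), with sums of 98.4 to 126 CPM in sham and 107 to 157 CPM in SNI, and their part and that of the striatal genes in the values of the members was not tested. The 10 excitatory neuron genes summed to 6388 to 6727 CPM in sham and 7135 to 7531 CPM in SNI male mPFC, without overlap (median estimate 0.06, 0 called). The 10 inhibitory neuron genes summed to 866 to 893 CPM in sham and 811 to 854 CPM in SNI female mPFC, also without overlap (median estimate -0.11, 0 called), and the part of either list in the members' values was not tested. The summed astrocyte level overlapped between sham and SNI in both sexes.

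In the ACC the sham and SNI libraries overlapped for each member. By edgeR and by DESeq2, 0 of 10 members were called in the female ACC (0.024% of 16684 genes called by edgeR) and 0 of 10 in the male ACC (0.00599% of 16702 genes). At an unadjusted p under 0.05, 1 member was higher in the female ACC (Myrf, against 3.1% of genes) and 0 differed in the male ACC (4.48% of genes). Myrf was 41.8, 46.1 and 57.5 CPM in sham and 49.0, 59.8 and 63.1 CPM in SNI female ACC (0.23, SE 0.11, adjusted p = 0.745), and 0.14 without female sham ACC replicate 1. In the male ACC it was 53.9 to 70.9 CPM in sham and 50.7 to 69.7 CPM in SNI (-0.07, SE 0.13). Sox10 was 29.5 to 37.5 and 34.7 to 36.7 CPM in sham and SNI female ACC (0.13, 95% interval with -0.09 and 0.35 as its bounds) and 39.8 to 40.6 and 35.8 to 46.3 CPM in the male ACC (-0.02, -0.28 to 0.25). The other 8 members lay between -0.11 (Zfp488) and 0.23 (Nkx2-2) in the female ACC and between -0.26 (St18) and 0.07 (Olig1) in the male ACC. Without male sham ACC replicate 3, St18 was called lower in the male ACC, at -0.45, as 13.5% of genes were called, and Myrf was at -0.17. The median over the members was 0.11 in females and -0.03 in males, and 0 of 10 members were without overlap in either sex, against 6.25% of genes higher and 5.6% lower in females and 4.54% and 3.65% in males.

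Whether SNI acted differently in the regions was tested as an interaction, and 0 members and 0 genes were called in females or males by edgeR (0% of 17451 and of 17504 genes), and 0 members by DESeq2. The estimates (mPFC difference minus ACC difference) were -0.95 for Nkx6-2 (SE 0.31), -0.80 for Myrf (SE 0.32) and -0.67 for Sox10 (SE 0.24) in females, where 6 members had a negative term at an unadjusted p under 0.05 against 5.51% of all genes (the other 3 were Olig1 at -0.44, Olig2 at -0.46 and Sox8 at -0.30). Nkx2-2 (-0.34), St18 (-0.25), Tcf7l2 (-0.03) and Zfp488 (0.12) did not reach that level. Without female SNI mPFC replicate 1 the female terms were -0.64 for Nkx6-2, -0.50 for Myrf, -0.44 for Sox10, -0.33 for Olig1, -0.31 for Olig2 and -0.22 for Sox8, and without female sham mPFC replicate 3 Sox10, Olig1 and Nkx6-2 were called lower, with 11.6% of genes called. In males they were -0.43 for Nkx6-2 (SE 0.16), -0.45 for Myrf (SE 0.19) and -0.36 for Sox10 (SE 0.15), and 4 members had such a term against 1.87% of all genes, Sox8 (-0.26) being the other. The remaining male terms lay between -0.39 (Nkx2-2) and 0.13 (Zfp488), and without male SNI mPFC replicate 2 those for Nkx6-2, Myrf and Sox10 were -0.40, -0.31 and -0.25. The difference between the sexes in the response to SNI was not called for any member in the mPFC or the ACC, by edgeR (0% of genes called in either region) or by DESeq2 (4.57% of genes in the mPFC and 0.0116% in the ACC). By edgeR 0 members had an unadjusted p under 0.05 in either region, against 15.8% (mPFC) and 5.92% (ACC) of genes, and the estimates (female minus male) lay between -0.46 (Nkx6-2) and 0.31 (Nkx2-2) in the mPFC and between -0.03 (Zfp488) and 0.29 (Myrf) in the ACC. Without female sham mPFC replicate 3, Olig1 was called in the mPFC, at -0.33, as 18.3% of genes were. The female and male mPFC values above are therefore not shown to differ.

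To set the members against the stages of the lineage, the mean log2 CPM of the 10 members was taken relative to that of each list in every library. Relative to the myelin genes the members were higher after SNI in the mPFC: the sham female libraries were at -1.60, -1.54 and -1.48 and the SNI ones at -1.47, -1.43 and -1.11, and the sham male libraries at -1.67, -1.65 and -1.61 and the SNI ones at -1.54, -1.50 and -1.31. SNI and sham did not overlap in either sex, though in females the gap was small. One library set part of the size: without female SNI replicate 1 the difference of the means was 0.09 in place of 0.20, and without male SNI replicate 2 it was 0.12 in place of 0.19. Relative to the precursor genes the members were lower after SNI, by 0.30 in the male mPFC (-0.56 to -0.48 in sham, -1.03 to -0.69 in SNI, no overlap) and by 0.37 in the female mPFC (-0.79 to -0.62 in sham, -1.50 to -0.78 in SNI, overlapping). Without male SNI replicate 2 the male difference was -0.20, and without female SNI replicate 1 the female one was -0.15. Relative to the newly formed genes the SNI libraries were 0.09 lower in the male mPFC without overlap and overlapped in the female mPFC. In the ACC the ratio to the myelin genes overlapped in both sexes, with differences of -0.03 in females and 0.01 in males (0.10 without male sham ACC replicate 3). Relative to the newly formed genes the female ACC libraries were 0.11 higher after SNI without overlap (-0.093 to -0.0069 in sham, 0.039 to 0.090 in SNI). With the median of that list the female ACC value was -0.050. The male ACC libraries overlapped relative to the newly formed genes (-0.03). With the median of each list in place of its mean, the male mPFC differences were 0.37 for the myelin, 0.0013 for the newly formed and -0.08 for the precursor genes. No test was made on these means, since the members were not drawn at random.

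**Figure D3:**
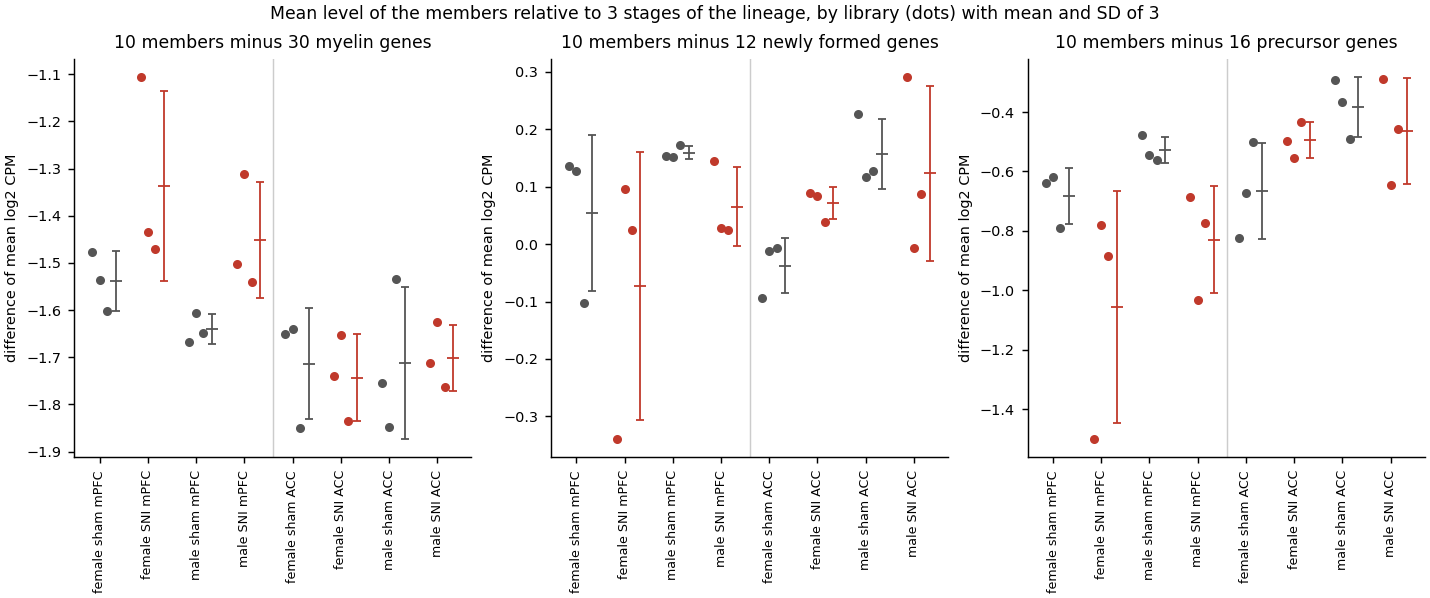
Mean log2 CPM of the 10 members minus that of the myelin, newly formed and precursor genes (y axes, one panel each) in every library (dots) of the 8 groups (x axis), with mean and SD of 3, sham in grey and SNI in red. In the mPFC the SNI libraries sit above sham in the myelin panel and mostly below sham in the precursor panel.

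Member by member, most values relative to the myelin mean were above 0, as they were for other genes: 50.6% of all genes tested were higher without overlap in the female mPFC and 71.7% in the male mPFC, while 0.0473% and 0.153% were lower. A member that was higher without overlap therefore did what most genes did. Zfp488 was higher relative to the myelin mean without overlap in both sexes of the mPFC, by 0.58 log2 units in females (0.33 without female SNI replicate 1) and by 0.50 in males. Olig1 (0.39) and Olig2 (0.34) were higher without overlap in the male mPFC, and in the female mPFC they overlapped and were within 0.01 of 0 without female SNI replicate 1. Tcf7l2 was 0.58 higher without overlap in the female mPFC (0.26 without female SNI replicate 1) and 0.35 higher with overlap in the male mPFC (0.20 without male SNI replicate 2). Nkx2-2 was 0.39 higher without overlap in the female mPFC (0.42 without that library) and 0.05 higher with overlap in the male mPFC (-0.22 without male SNI replicate 2). Myrf was at -0.10 in females (overlapping) and -0.06 in males (lower, with no overlap), and Sox10 at -0.03 in females and 0.09 in males. Without female SNI replicate 1 the female values were -0.039 for Myrf and -0.092 for Sox10, and without male SNI replicate 2 the male value for Sox10 was 0.054. Nkx6-2 was lower relative to the myelin genes in the female mPFC, by 0.39 without overlap (-0.33 without female SNI replicate 1), and overlapped in the male mPFC at 0.10 (-0.03 without male SNI replicate 2). Sox8 and St18 overlapped in both sexes: Sox8 was at 0.37 in females (0.10 without female SNI replicate 1) and 0.20 in males (0.10 without male SNI replicate 2), and St18 at 0.20 in females and -0.06 in males (0.13 without male SNI replicate 2).

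The same question was put to edgeR with the mean of the myelin genes in place of the library scaling, in the 12 mPFC libraries with sex as a term. Zfp488 (0.55, SE 0.20, adjusted p = 0.0197) and Tcf7l2 (0.50, SE 0.22, adjusted p = 0.0328) were called higher than the myelin genes, which was also so for 86.6% of 17641 genes, since the reference genes themselves had negative estimates. The other 8 members were not called: the estimates were -0.14 for Nkx6-2, -0.08 for Myrf, 0.03 for Sox10, 0.07 for St18, 0.22 for Nkx2-2, 0.27 for Olig2, 0.32 for Sox8 and 0.33 for Olig1, each with an SE of 0.20 to 0.22. Most genes of a library shift together against this reference and the fit shares 1 variance trend over all of them, so these SEs and p-values do not measure the spread of each gene alone. Zfp488 and Tcf7l2 kept the call in all 12 fits that left out 1 library, at 0.42 to 0.61 (adjusted p between 0.00626 and 0.0677) and 0.32 to 0.58 (adjusted p between 0.0118 and 0.0813). With the precursor genes as the reference 0 members and 0.00567% of genes were called. In the 12 ACC libraries 0 of 10 members were called, 0.145% of 17289 genes were, and 0 members had an unadjusted p under 0.05, against 1.71% of genes.

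Over all 24 libraries the members fell into an order by how steeply their log2 level followed the mean log2 level of the myelin genes. Nkx6-2 (slope 1.13, Pearson r = 0.925), Myrf (1.05, r = 0.956) and St18 (1.05, r = 0.926) moved by about as much as the myelin genes. Sox10 (0.64, r = 0.786), Nkx2-2 (0.48, r = 0.546), Olig2 (0.41, r = 0.837), Olig1 (0.40, r = 0.805) and Sox8 (0.28, r = 0.721) moved by less, and Zfp488 (0.12, r = 0.254) and Tcf7l2 (0.08, r = 0.158) moved little. Within groups, on deviations from the 8 group means, the slopes were 1.18 for St18, 1.10 for Myrf, 0.94 for Nkx6-2, 0.74 for Sox10, 0.70 for Nkx2-2, 0.47 for Olig2, 0.40 for Zfp488, 0.38 for Olig1, 0.21 for Sox8 and 0.14 for Tcf7l2. Without female SNI mPFC replicate 1, which lies alone at the low end, the slope within groups was 1.02 for Myrf, 0.65 for Nkx6-2, 0.53 for Zfp488, 0.45 for Olig2 and 0.19 for Nkx2-2, so the place of Zfp488 in the order differed between the slopes over all libraries and those within groups. These are descriptions, since the 24 libraries share groups, regions and scaling.

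**Figure D4:**
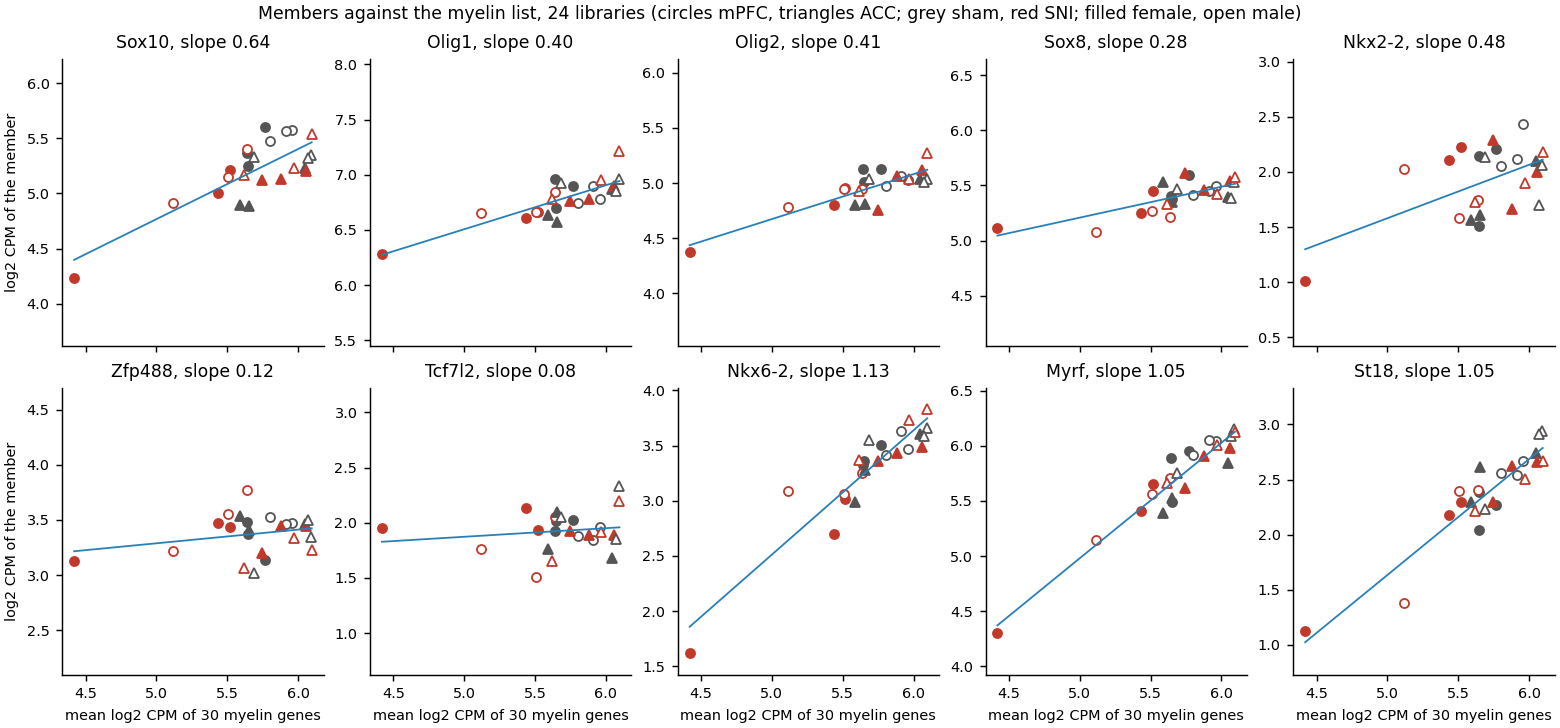
Log2 CPM of each member (y axis, each spanning 2.6 log2 units) against the mean log2 CPM of the 30 myelin genes (x axis) in 24 libraries, with the least-squares line and its slope, circles for mPFC and triangles for ACC, grey for sham and red for SNI, filled for female and open for male. The points climb at a slope near 1 for Nkx6-2, Myrf and St18 and lie nearly flat for Zfp488 and Tcf7l2, and female SNI mPFC replicate 1 lies alone at the left.

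Among 14714 genes with a mean of at least 1 CPM, the genes whose log2 levels were most like those of a member over the 24 libraries were named for each. For Myrf they were Mbp (r = 0.986), Cnp (r = 0.984) and Cldn11 (r = 0.974), for Nkx6-2 among others Pllp (r = 0.960) and Prr18 (r = 0.949), and for St18 Ugt8a (r = 0.959), Gatm (r = 0.957) and Anln (r = 0.957). For Sox10 they were Pacs2 (r = 0.948), Phldb1 (r = 0.920) and Frmd8 (r = 0.914), and on deviations from group means Mag (r = 0.946), Ttyh2 (r = 0.943) and Plekhg3 (r = 0.939). Olig1 was most like Sirt2 (r = 0.946) and Olig2 most like Rhog (r = 0.940). Nkx2-2, Zfp488, Sox8 and Tcf7l2 had a lower highest r over the 24 libraries, at 0.735, 0.680, 0.810 and 0.723. On deviations from group means it was 0.846 for Nkx2-2 (with Smad7), 0.797 for Zfp488 (Ermp1), 0.797 for Sox8 (Slc6a9) and 0.767 for Tcf7l2 (Arhgef6). Each r is the largest of many and is given as a description.

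In sham mice Sox10 was called higher in the mPFC than in the ACC in both sexes. It was 38.0, 41.2 and 48.6 CPM in the female mPFC and 29.5, 29.7 and 37.5 CPM in the female ACC, and 44.5, 47.3 and 47.5 CPM in the male mPFC and 39.8, 40.1 and 40.6 CPM in the male ACC. The regions did not overlap in either sex, which was so, in this direction, for 17.5% of genes in females and 14.3% in males, and Sox10 was called higher in the mPFC, by 0.41 for the females (SE 0.11, adjusted p = 0.0232) and by 0.22 for the males (SE 0.07, adjusted p = 0.0584). Olig2 was called higher in the female mPFC (0.22, SE 0.08, adjusted p = 0.0751), though its ranges overlapped (32.2 to 35.0 and 27.8 to 32.7 CPM), and was at 0.00 (SE 0.07) in males. The other 8 members, none of them called, lay between -0.32 (St18) and 0.22 (Nkx2-2) in females and between -0.19 (Tcf7l2) and 0.24 (Nkx2-2) in males. The female call of Olig2 was lost with a replicate block (0.22, adjusted p = 0.125) and in one model over all 24 libraries (0.22, adjusted p = 0.159). It was also lost in 4 of 6 fits that left out 1 library (0.18 to 0.30, adjusted p between 0.0260 and 0.231). So 2 of 10 members were called in females and 1 of 10 in males, where 28.5% and 14.2% of all genes were called, which puts the members near the background of genes that differ between these regions. Leaving out each library in turn kept the call of Sox10 in 4 of 6 fits in females (0.31 to 0.53, adjusted p between 0.00432 and 0.112, lost at 0.36 without sham ACC replicate 2 and at 0.31 without sham mPFC replicate 2) and in 1 of 6 in males (0.20 to 0.24, adjusted p between 0.0186 and 0.270, called without male sham ACC replicate 3). The male call of Sox10 was also lost in one model over all 24 libraries (0.21, adjusted p = 0.421) and without a filter on low counts (0.19, adjusted p = 0.219). Without female sham ACC replicate 1, the library rich in ependymal and choroid plexus genes, the female difference in Sox10 was 0.36 and that in Olig2 was 0.18 and no longer called. Without female sham mPFC replicate 3, 5 members and 41.5% of genes were called in females, and without male sham ACC replicate 3, 2 members (Sox10 at 0.22 and St18 at -0.33) and 27% of genes were called in males.

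No myelin gene was called higher alongside Sox10: their median difference between the regions was -0.05 in females and -0.07 in males, with 0 of 30 called higher. Their mean log2 CPM was 5.64, 5.77 and 5.65 in sham female mPFC and 5.59, 5.66 and 6.05 in sham female ACC (replicates 1 to 3). In females the mPFC mean was below the ACC mean only with ACC replicate 3. In males the values were 5.96, 5.80 and 5.91 in mPFC and 6.09, 6.07 and 5.69 in ACC, replicate 3 being the lowest. Fitted relative to the myelin genes female Sox10 was at 0.48 (SE 0.18, adjusted p = 0.154) and male Sox10 at 0.26 (SE 0.14, adjusted p = 0.578), and 0 of 10 members were called in either sex, where 4.2% and 2.35% of all genes were. Without male sham ACC replicate 3, 3 members (Sox10, Nkx2-2 and Zfp488) and 35% of genes were called in males. At an unadjusted p under 0.05, 1 member (Sox10) was higher in females, where 7.13% of genes were, and 0 in males, where 10.7% differed. Of the 16 precursor genes 5 were called higher and 1 lower in the female mPFC (median 0.11), where 14% of all genes were called higher, and 4 were called higher and 0 lower in the male mPFC (median 0.20), where 7.46% of all genes were. Among the other regulators, Thra, a thyroid hormone receptor, was called higher in the mPFC in both sexes (0.68, SE 0.08, and 0.51, SE 0.08), and Id2, an inhibitor of helix-loop-helix factors, lower in both (-0.44, SE 0.06, and -0.40, SE 0.06). Both are also expressed by neurons. Other cells' markers differed between the regions too: the summed astrocyte level was 5420 to 5973 CPM in the mPFC and 6583 to 6685 CPM in the ACC of sham females, and 5306 to 5864 and 6231 to 6439 CPM in sham males. The endothelial and mural genes summed to 444 to 483 CPM in the mPFC and 531 to 599 CPM in the ACC of females, and to 419 to 471 and 507 to 579 CPM in males. Inhibitory neuron genes were also lower in sum in the mPFC without overlap in both sexes, at 866 to 893 and 955 to 998 CPM in females and 865 to 884 and 960 to 1048 CPM in males. Meningeal fibroblast genes summed to 98.4 to 126 CPM in the mPFC and 154 to 258 CPM in the ACC of females, and to 93.4 to 110.0 and 119 to 221 CPM in males. The 12 microglia genes summed to more in the mPFC without overlap in both sexes, at 401 to 425 and 365 to 390 CPM in females and 395 to 415 and 359 to 393 CPM in males. Striatal neuron genes summed to more in the female mPFC (242 to 303 CPM) than in the female ACC (215 to 227 CPM), and overlapped in males (246 to 251 and 227 to 258 CPM). The part of these cells in the region differences of the members was not tested.

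**Figure D5:**
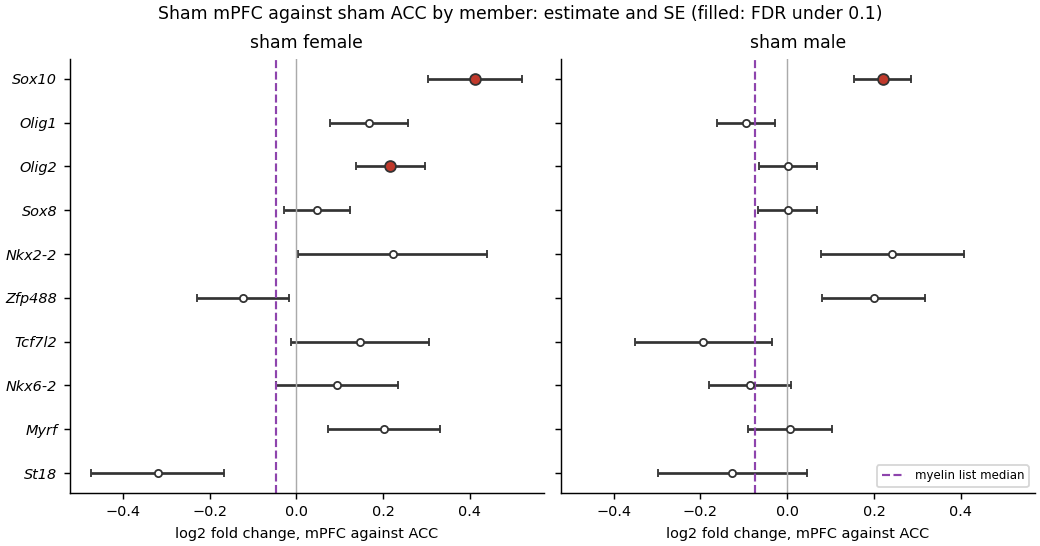
Log2 fold change of sham mPFC against sham ACC (x axis) for the 10 members (y axis) in females and males, with SE as bars, filled where the FDR was under 0.1, and the median of the myelin genes as a dashed line. Sox10 lies to the right of 0 and of the myelin median in both sexes, at 0.41 and 0.22.

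Between the sexes, 0 of 10 members were called in sham mPFC or in sham ACC by edgeR or DESeq2, where 0.177% and 0.0958% of all genes were called by edgeR. At an unadjusted p under 0.05, St18 was lower in females in the mPFC (-0.36, SE 0.13, adjusted p = 0.376, with 5.45% of genes lower), and Sox10 (-0.32, SE 0.09), Myrf (-0.41, SE 0.13) and Olig1 (-0.22, SE 0.08) were lower in females in the ACC, where 3.33% of genes were lower and the smallest adjusted p of a member was 0.587. In sham ACC Sox10 was 29.5 to 37.5 CPM in females and 39.8 to 40.6 CPM in males, with no overlap (6.79% of genes were lower in females without overlap), and the other members overlapped. In sham mPFC St18 was the member without overlap, at 4.04 to 5.16 CPM in females and 5.75 to 6.30 CPM in males (8.03% of genes). The other 9 estimates in sham mPFC (female against male) lay between -0.22 (Nkx2-2) and 0.10 (Tcf7l2), and the 7 members not named above in sham ACC lay between -0.29 (Nkx6-2) and 0.17 (Zfp488). Without male sham ACC replicate 3, Myrf was called lower in females in the ACC, at -0.52 (0.405% of genes called), and without female sham mPFC replicate 3, St18 was called lower in females in the mPFC, at -0.44 (15.5%).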

How the data were processed

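Total RNA of 24 libraries (8 groups of 3 pools of 4 to 5 mice) was measured by RNA sequencing. The authors deposited 4 tables of raw counts per gene; the submitters' notes and methods name Trimmomatic 0.36, Bowtie2 2.33 for removal of Rfam reads, HISAT2 2.1.0, HTSeq 0.9.1, edgeR 3.34.0 and build GRCm38. The strand mode and annotation release were not given in the sources used here. All 33364 identifiers matched GENCODE M21, which gave symbols, positions and exon lengths. Region and sex of each column were read from its table and name.

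Counts were scaled by TMM and tested with edgeR 4.0.16 (quasi-likelihood F-test, R 4.3.3, limma 3.58.1) over all genes that passed filterByExpr (minimum count 10, minimum total 15), with Benjamini-Hochberg adjustment and a call at FDR under 0.1. Log2 levels used a prior count of 2. Each comparison used the libraries of its own groups. The fits relative to myelin genes replaced the library scaling by the mean of 30 myelin genes. Scripts were tested on simulated data. DESeq2 1.42.0, other scaling, filters and models, a replicate block, the precursor genes as reference and leaving out each library were tried as alternatives.

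The members, lists and tests were chosen with earlier results of these data known. All 10 members were tested in each comparison and are given by name or by their range, and from the other lists preset genes were named, plus up to 4 other regulators with the smallest adjusted p among those called (some named genes and 1 alternative reference are not reported here); Thra and Id2 were kept of those as called in both sexes. Replicates are pools; whether they were handled on separate days is not given, and p-values measure the spread between pools. Counts at the floor of 3 cover counting error only. Depth was 23853845 to 32864391 counts per library.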

Additional observations from a re-analysis of the deposited data

How the results depend on the processing

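Estimates kept their sign in most alternatives, and the number of members called depended more on the settings. Among alternatives that did not leave out a library, 1110 single-gene values kept their direction and side of the threshold, 38 gained a call, 6 lost it and 26 changed sign. Without a filter on low counts, 5 members were called in the female mPFC (641 of 29247 genes), 1 in the female ACC (398 of 28858), 5 in the male mPFC (596 of 29717) and 7 in the mPFC of both sexes (539 of 31601). In the region comparison 3 members were called in females (5008 of 28899 genes) and 0 in males (2801 of 29138). In the sex comparison of the ACC 1 was called (115 of 28814). In the sex by SNI interaction in the mPFC 1 was called (883 of 31601), and in the region by SNI interaction 5 in females (672 of 31109) and 1 in males (128 of 31446). The SE of Sox10 in the female mPFC was then 0.09 in place of 0.18. DESeq2 called 3 members in the male mPFC and 1 in the mPFC of both sexes. One model over 24 libraries called 0 in the male mPFC, 1 in the female (5780 of 16746 genes) and 0 in the male region comparison (3551 of 16831 genes). A stricter filter (at least 10 counts in every library) called 2 in the male mPFC, as did the current quasi-likelihood method with 2 (112 of 16989 genes). Over all genes, 84 were called in the male mPFC by the reported fit, 283 by DESeq2, 596 without a filter, 130 with the stricter filter, 0 by the model over 24 libraries and 745 with a replicate block; in the female mPFC 1 was called by the reported fit, 13 by DESeq2 and 641 without a filter, and in the mPFC of both sexes 0, 63 and 539, and 43 with the block. The cause of these differences was not tested.

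Whether replicate numbers pair the libraries was not settled, since deviations from means of 3 libraries cannot exclude it. For sham and SNI female mPFC, same-numbered r was 0.028, 0.12 and 0.098, against at most 0.0017, -0.043 and 0.014 for other numbers. In the male mPFC it was 0.15, 0.051 and 0.0047, against at most -0.052, 0.050 and 0.052. In the ACC the same number was the higher only for number 2 in females. Correlations of same-numbered deviations lay between -0.10 and 0.15 for sham and SNI, and between -0.060 and 0.10 for mPFC and ACC. With a replicate block 4 members were called in the male mPFC (745 of 16989 genes). In the female region comparison 1 was called (3890 of 16746 genes), and Olig2 lost its call there (adjusted p = 0.125).

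With the precursor genes as the reference 0 members were called in the mPFC and 2 in each sex in the region comparison; a second planned reference is not reported here. With the median of a list, the ratio differences were 0.37 (male mPFC) and -0.14 (female ACC) to the myelin genes, 0.0013 and -0.050 to the newly formed genes, and -0.081 to the precursor genes in the male mPFC. Signs changed in the male region comparison for Olig2, Myrf and Sox8 (DESeq2 -0.0078, -0.0023 and -0.0085; other size factors -0.0078, -0.0023 and -0.0084; 24 libraries -0.0066, -0.00092 and -0.0073; no filter -0.033, -0.028 and -0.034; stricter filter -0.0036 for Olig2 and -0.0042 for Sox8). Against the precursor genes the mPFC values were -0.47 for Sox10, -0.22 for Olig1, -0.26 for Olig2, -0.29 for Nkx2-2, -0.24 for Sox8, -0.058 for Tcf7l2 and -0.39 for St18, the female region values -0.036 for Nkx6-2 and -0.078 for Sox8, and the male ones -0.17 for Olig2, -0.16 for Myrf and -0.17 for Sox8.

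Leaving out each library in turn, the members called ranged over 0 to 5 in the female and 0 to 2 in the male mPFC, 0 to 1 in the male ACC, 0 to 5 and 0 to 2 in the female and male region comparison, 0 to 1 in the sex comparison of either region, 0 to 1 in the sex by SNI interaction in the mPFC, 0 to 3 in the female region by SNI interaction, 2 to 4 relative to the myelin genes in the mPFC, and 0 to 1 (female) and 0 to 3 (male) in the region comparison relative to them. Many genes were called at several upper ends. Without female sham mPFC replicate 3, 15.9% were called in the female mPFC and 41.5% in the female region comparison. So were 18.3% for the sex by SNI interaction and 11.6% for the female region by SNI interaction. Without male sham ACC replicate 3 the shares were 13.5% (male ACC), 27% (male region comparison) and 35% (that comparison relative to the myelin genes). Relative to them in the mPFC, 86.6% were called higher with all libraries. The sign depended on the library left out in 51 of 180 single-gene results, none of them called and each with an estimate smaller than its SE. In the female mPFC Nkx2-2 gave -0.33 to 0.18, Zfp488 -0.081 to 0.11 and Tcf7l2 -0.046 to 0.056. In the female ACC Nkx6-2 gave -0.033 to 0.28, Tcf7l2 -0.038 to 0.18 and St18 -0.15 to 0.077. In the male mPFC Zfp488 gave -0.093 to 0.19 and Tcf7l2 -0.26 to 0.027. In the male ACC Sox10 gave -0.13 to 0.059, Olig1 -0.042 to 0.18, Olig2 -0.041 to 0.13, Myrf -0.17 to 0.058, Nkx6-2 -0.038 to 0.18, Nkx2-2 -0.17 to 0.064, Zfp488 -0.21 to 0.015 and Sox8 -0.081 to 0.039. In the mPFC of both sexes Zfp488 gave -0.030 to 0.10 and Tcf7l2 -0.10 to 0.024. In the ACC of both sexes Tcf7l2 gave -0.11 to 0.022. Between regions in females Nkx6-2 gave -0.042 to 0.27 and Sox8 -0.024 to 0.10. Between regions in males Olig2 gave -0.029 to 0.020, Myrf -0.11 to 0.077 and Sox8 -0.049 to 0.029. Between sexes in the mPFC Olig1 gave -0.0054 to 0.12 and Sox8 -0.056 to 0.048. For the sex by SNI interaction in the mPFC Sox10 gave -0.38 to 0.065, Myrf -0.33 to 0.25, Zfp488 -0.17 to 0.11, Sox8 -0.022 to 0.16, Tcf7l2 -0.0030 to 0.29 and St18 -0.085 to 0.46. For that in the ACC Olig1 gave -0.065 to 0.16, Olig2 -0.033 to 0.14, Nkx6-2 -0.087 to 0.23 and Zfp488 -0.13 to 0.11. For the region by SNI interaction in females Tcf7l2 gave -0.16 to 0.057 and St18 -0.45 to 0.032. For that in males Tcf7l2 gave -0.098 to 0.21 and St18 -0.36 to 0.055. Relative to the myelin genes in the ACC Sox10 gave -0.0090 to 0.084, Olig2 -0.0045 to 0.093, Nkx2-2 -0.064 to 0.18 and Sox8 -0.058 to 0.072. Relative to them between regions in females Zfp488 gave -0.20 to 0.067, Sox8 -0.047 to 0.24 and Tcf7l2 -0.0088 to 0.39. Relative to them between regions in males Olig1 gave -0.15 to 0.089, Olig2 -0.033 to 0.19, Nkx6-2 -0.11 to 0.069 and Sox8 -0.056 to 0.18.

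With 3 pools per group, differences near the SEs printed here could not be told from 0.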
